A study of Homo sapiens with 8 samples.

Results

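The transcriptional response of Smad3(RA/KP)-expressing A549-S3KO cells to TGF-β is described, with the levels and ratios of 4 of the 8 libraries of the series. A549 is a human lung adenocarcinoma cell line, and A549-S3KO is its SMAD3 knockout derivative. The study describes the knockout as made by CRISPR/Cas9 editing, and the sample labels name a nickase plasmid. Every cell analysed carried that knockout, and a lentivirus supplied the Smad3 cDNA. Smad3(RA/KP) carries 2 substitutions, R104K and A105P. The 2 untreated libraries were set against the 2 libraries of cells given TGF-β (1 ng/ml, 8 h), and libraries were chosen by their titles and paired by replicate number. According to the methods, cells were seeded on collagen-coated plates as TGF-β was added, and infected cells had been cloned by limiting dilution. No source used here names the clone or clones that were sequenced, so effects of Smad3(RA/KP) and of the clone cannot be told apart. The other 4 libraries, from A549-S3KO cells expressing wild-type Smad3 under the same conditions, entered the fit behind every call, which shares its estimate of spread and its replicate block over all 8 libraries. With the 4 Smad3(RA/KP) libraries alone, 374 genes were higher and 199 lower. Wild-type values are printed where the responses of the lines are compared. Poly(A) RNA was sequenced, and expression is given in TPM, a share of all transcripts that is corrected for length, so that levels of different genes can be compared.

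TGF-β binds a complex of type I and type II serine/threonine kinase receptors. The type I receptor phosphorylates Smad2 and Smad3, which join Smad4, enter the nucleus and bind DNA together with other transcription factors such as AP-1. Smad3 contacts DNA through its MH1 domain, in which R104 and A105 lie, and recognises the short CAGA box. In lung carcinoma cells TGF-β is best known for epithelial-mesenchymal transition (EMT), in which epithelial junctions loosen, matrix is deposited, stress fibres form and motility rises.

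The 4 Smad3(RA/KP) libraries held 1.21 to 1.57 Gb of bases mapped to genes and 12839 to 13281 genes at a TPM of at least 1. SMAD3 was at 144 and 180 TPM in the untreated libraries and 168 and 169 TPM with TGF-β. The lentiviral cDNA and the edited locus cannot be told apart in this value. The keratins KRT8, KRT18 and KRT7 ranged from 2653 to 6862 TPM, while the lung lineage factor NKX2-1 and the surfactant genes SFTPA1, SFTPB and SFTPC were listed at 0 in all 4. The leukocyte and endothelial markers PTPRC, LYZ and PECAM1 were also listed at 0. Others of the same marker list were not: CD68 was at 51 to 91.1 TPM and CD14 at 5.96 to 13.5 TPM. The epithelial marker EPCAM was low, at 1.4 to 3.95 TPM. Untreated replicate 2 stood apart. Its difference from untreated replicate 1 followed the GC content of transcripts, at a Spearman correlation of −0.585 across 12388 genes whose GC content is known, against 0.101 to 0.224 in the other 3 groups. The ratio with to without TGF-β therefore followed GC content in replicate 2 (Spearman 0.663) and hardly in replicate 1 (0.0863). These correlations run across genes, which are not independent replicates. For this reason the ratio of each replicate is given, on log2(TPM + 1), as the ratio of replicate 1 and then of replicate 2.

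TGF-β raised 458 genes and lowered 197 in Smad3(RA/KP) cells, of 13141 genes whose mean reached 1 TPM (limma, adjusted p under 0.05). These are 3.49% of the genes tested in the upward and 1.50% in the downward direction, the shares against which the members of each gene list are read. All 655 genes moved in 1 direction in both replicates, which the call favours, since it rests on the same ratios. Over all genes tested the ratios of replicates 1 and 2 had a Spearman correlation of 0.297, and of 0.346 with the GC trend removed. In 263 of the higher and 90 of the lower genes both ratios exceeded 1 in size, a doubling on the TPM + 1 scale. Treated and untreated libraries overlapped in TPM for 4 of the higher and 7 of the lower genes. Rises were larger than falls: 72 higher genes and 9 lower genes had a log2 fold change of at least 2 in size. The smallest log2 fold change that passed was 0.66 in size. Over all genes tested the log2 fold change had a median of −0.10, with 0.04 in replicate 1 and −0.23 in replicate 2. The call depends on treating the replicate number as a block: without it 214 genes were higher and 55 lower, and all of these were among the 458 and the 197. Without untreated replicate 2, 283 genes were higher and 71 lower, of which 252 and 50 were among the original calls. Without untreated replicate 1 the counts were 993 and 1629, without treated replicate 1 158 and 88, and without treated replicate 2 147 and 16. Leaving out a treated wild-type library gave 287 and 83 for replicate 1 and 282 and 82 for replicate 2. With the GC trend of each library removed, 578 of 12388 genes were higher (4.67%) and 349 lower (2.82%), and these included 408 of the 440 higher and 154 of the 187 lower genes that have a GC value.

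**Figure D1:**
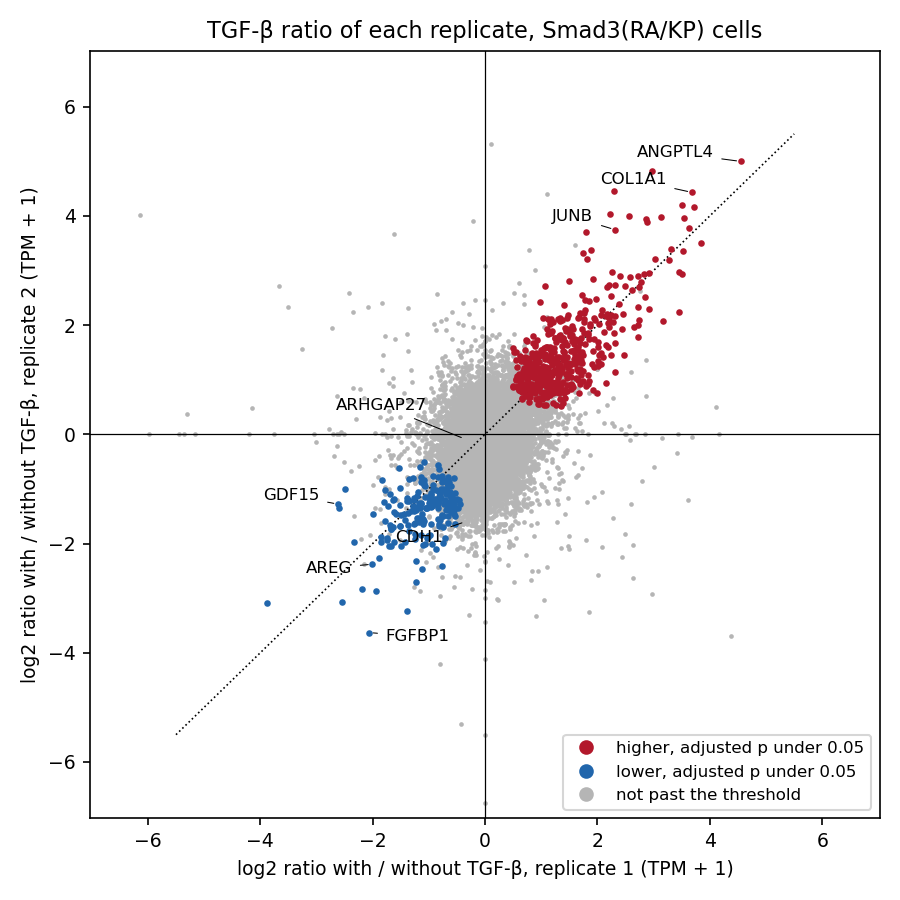
Log2 ratio with to without TGF-β on TPM + 1 in replicate 1 (horizontal axis) and replicate 2 (vertical axis) of Smad3(RA/KP) cells, 1 point for each of the 13141 genes tested, with the dotted line where both ratios are equal. The 458 higher genes lie in the upper right quadrant and the 197 lower genes in the lower left, while ARHGAP27 lies near the centre at −0.35 and −0.09.

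The genes with the largest rise in both replicates included several for secreted and matrix proteins. ANGPTL4, an inhibitor of lipoprotein lipase (GRCh38, chr19:8364127-8374375, plus strand), was at 21.7 and 22.8 TPM untreated and 530 and 760 TPM after TGF-β. Its ratios were 4.55 and 5.00, and its log2 fold change of 4.77 (SE 0.20, adjusted p = 3.45e-05) was the largest of the genes named by this ranking. COL1A1, a chain of type I collagen (chr17:50184096-50201642, minus strand), went from 12.3 and 3.87 TPM to 169 and 104 TPM. The untreated libraries differed more than 3-fold for COL1A1, yet both treated values lay far above both of them. IL11, a cytokine of the IL6 family (chr19:55364382-55370463, minus strand), went from 12 and 17.2 TPM to 149 and 281 TPM.

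Genes with low untreated levels also rose. WNT5B, a Wnt ligand, was at 0.399 and 0.388 TPM untreated and 19 and 14.8 TPM after TGF-β. SEMA7A, a membrane-anchored semaphorin, was at 0.566 and 1.12 TPM without and 18.3 and 28.1 TPM with it. KDM6B, a histone H3K27 demethylase, went from 6.41 and 7.37 TPM to 59.3 and 76.0 TPM, and its neighbour on chromosome 17, TMEM88, from 0 and 0.504 TPM to 10.5 and 14.4 TPM. In each of these genes treated and untreated libraries were separated more than 7-fold on the TPM scale. CLDN4, a tight junction claudin and thus an epithelial gene, also rose, from 5.21 and 3.93 TPM to 58.8 and 43.9 TPM (log2 fold change 3.23, SE 0.20, adjusted p = 0.000134). All of the genes named in this and the preceding paragraph kept their calls in each of the 20 alternatives tried.

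Chorionic gonadotropin beta genes rose as well. CGB5, CGB2, CGB8 and CGB7 were all among the 15 highest ranked, but these records are near-identical copies on chromosome 19, and reads could be divided among them arbitrarily. Their assignment is therefore uncertain. The sum of the 6 records was 12.1 and 5.52 TPM without TGF-β and 133 and 169 TPM with it, ratios of 3.36 and 4.70. In wild-type Smad3 cells the same sum gave 3.12 and 3.62. CGA, the alpha subunit that pairs with them in the hormone, was listed at 0 in every library. The sum and CGA were chosen after their values were seen. SEPT5, a septin that also ranked here, was listed at 0 in both untreated libraries, whereas TGF-β libraries held 12.1 and 16.9 TPM. The overlapping SEPT5-GP1BB record held 7.36 and 6.92 TPM in the untreated libraries, and the sum of both records rose less, by 0.91 and 1.51.

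**Figure D2:**
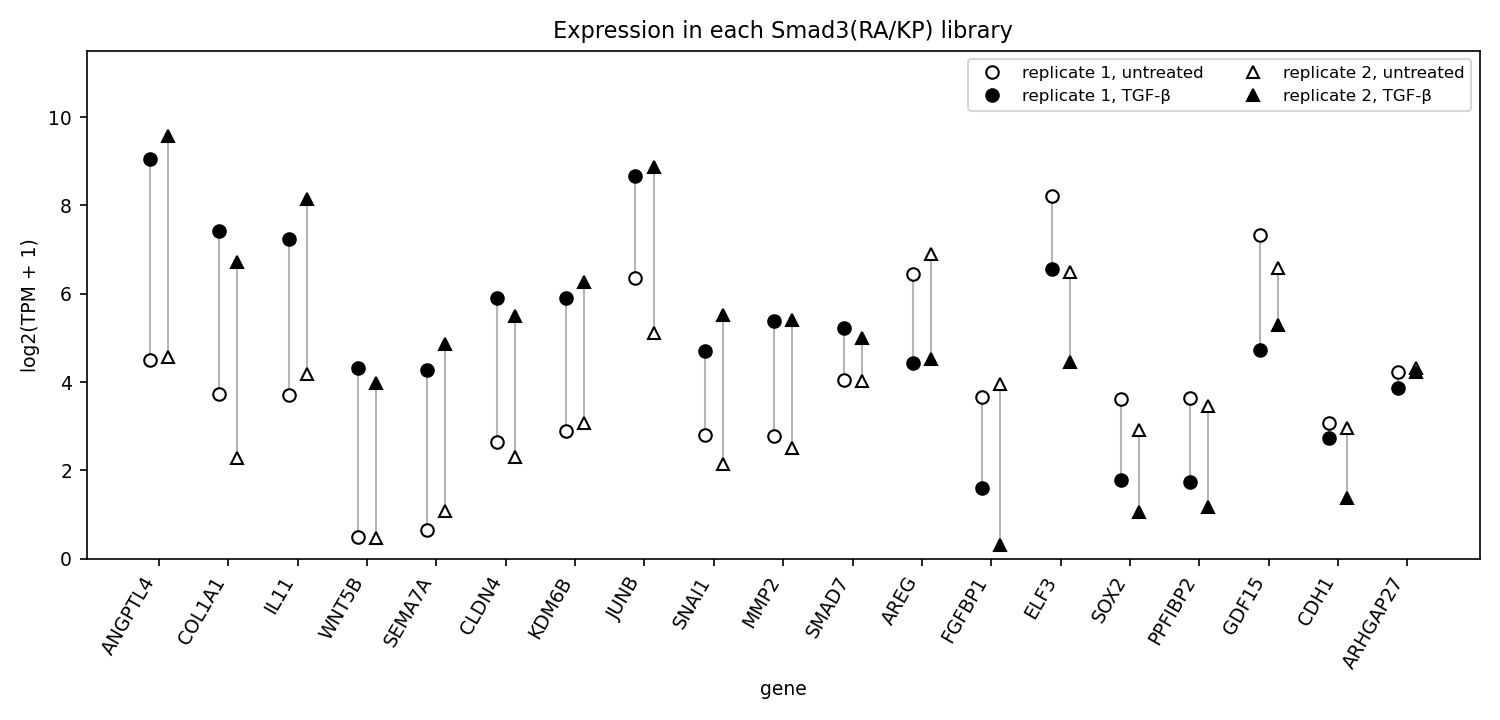
Expression as log2(TPM + 1) (vertical axis) of 19 genes in each Smad3(RA/KP) library, with a grey line joining the untreated and treated library of a replicate. The filled symbols lie above the open ones in both replicates from ANGPTL4 to SMAD7 and below them from AREG to GDF15, whereas CDH1 and ARHGAP27 differ little in replicate 1 or in both.

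The genes with the largest fall included growth factors and epithelial regulators. AREG, amphiregulin, a ligand of the EGF receptor (chr4:74445136-74455009, plus strand), went from 85.6 and 119 TPM to 20.6 and 22.1 TPM (log2 fold change −2.19, SE 0.19, adjusted p = 0.00044). FGFBP1, a carrier that mobilises matrix-bound FGFs (chr4:15935569-15938740, minus strand), went from 11.7 and 14.4 TPM to 2.04 and 0.242 TPM. ELF3, an epithelial Ets factor, went from 297 and 89.1 TPM to 92.8 and 20.9 TPM. The groups of ELF3 overlapped, because replicate 1 was more than 3 times higher than replicate 2 in both conditions, but its ratios were close, at −1.67 and −2.04. SOX2, a pluripotency and airway progenitor factor, went from 11.3 and 6.59 TPM to 2.42 and 1.07 TPM. PPFIBP2, a liprin, went from 11.5 and 9.96 TPM to 2.36 and 1.27 TPM, and FA2H, a fatty acid hydroxylase, from 99.0 and 133 TPM to 33.9 and 41.1 TPM. CABLES1, a binding partner of cyclin-dependent kinases, went from 13.3 and 13.7 TPM to 3.67 and 2.73 TPM. The rest of the 15 were LOC100506282, TRIM6, EVA1C, SEMA4G, LINC00473, LOC102724788, MSH5-SAPCD1 and PRODH. LOC100506282 was at 13.8 and 7.55 TPM without and listed at 0 in both treated libraries. MSH5-SAPCD1 is a read-through record that shares exons with its neighbours. AREG, PPFIBP2, CABLES1 and FA2H kept their calls in each of the 20 alternatives. FGFBP1 and SOX2 did not pass without some libraries, with a highest adjusted p = 0.0745 for FGFBP1 without untreated replicate 2 and 0.0633 for SOX2 without treated replicate 2, and ELF3 did not pass without the replicate block (0.288). The remaining 8 also lost their calls without at least 1 library, treated replicate 2 giving the highest adjusted p of each, from 0.056 for EVA1C to 0.175 for LOC100506282.

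The bases before the start of 4 of these genes are shown because they hold the core of the CAGA box, and because the genes moved in opposite directions. IL11, ANGPTL4 and the feedback inhibitor SMAD7 were higher with TGF-β, and FGFBP1 was lower. Sequences are from RefSeq (GRCh38.p14), 5′ to 3′ on the strand of the gene, and end at the RefSeq start or, for ANGPTL4, before the first base of its record. Capitals mark CAGAC or its complement GTCTG, and the AP-1 site TGAGTCA or its complement TGACTCA.
IL11 (chr19:55370464-55370713, minus strand): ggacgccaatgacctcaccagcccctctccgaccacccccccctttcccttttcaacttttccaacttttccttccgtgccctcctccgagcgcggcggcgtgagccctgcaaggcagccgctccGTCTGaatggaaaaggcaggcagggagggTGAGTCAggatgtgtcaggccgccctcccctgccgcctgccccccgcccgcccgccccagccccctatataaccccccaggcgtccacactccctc
ANGPTL4 (chr19:8363905-8364126, plus strand): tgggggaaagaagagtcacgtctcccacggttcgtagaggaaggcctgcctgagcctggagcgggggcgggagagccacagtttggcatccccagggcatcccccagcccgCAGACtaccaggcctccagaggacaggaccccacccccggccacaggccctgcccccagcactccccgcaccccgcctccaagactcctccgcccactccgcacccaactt
SMAD7 (chr18:48950966-48951215, minus strand): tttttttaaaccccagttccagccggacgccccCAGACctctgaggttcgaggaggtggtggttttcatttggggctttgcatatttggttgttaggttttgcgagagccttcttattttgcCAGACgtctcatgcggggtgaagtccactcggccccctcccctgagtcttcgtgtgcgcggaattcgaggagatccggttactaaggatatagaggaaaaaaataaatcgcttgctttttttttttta
FGFBP1 (chr4:15938741-15938990, minus strand): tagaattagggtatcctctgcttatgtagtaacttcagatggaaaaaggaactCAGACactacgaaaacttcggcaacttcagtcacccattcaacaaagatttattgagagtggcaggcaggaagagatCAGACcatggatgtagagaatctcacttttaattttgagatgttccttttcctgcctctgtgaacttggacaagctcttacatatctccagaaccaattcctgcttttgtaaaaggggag
In IL11 the AP-1 site begins 96 bases and the GTCTG core 125 bases before the start. In SMAD7 and FGFBP1 the window holds 2 cores each. Since the genes were chosen for a core in the window, its presence in both directions follows from that choice.

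Such matches were frequent in general. Promoters were found for 9953 of the genes tested, 345 of the higher and 141 of the lower ones. Within 250 bases before the start, CAGAC or GTCTG occurred in 39.1% of higher, 41.1% of lower and 35.9% of all tested promoters, and in 37.8% of all 27305 promoters of the table. The GC-rich Smad site GGCGC or GCGCC occurred in 69.6% of higher, 59.6% of lower and 70.8% of tested promoters, and in 44.2% of all promoters. The AP-1 site occurred in 4.93% of higher and 1.42% of lower promoters, against 2.55% of those tested and 4.16% of all promoters. Its shares of higher and lower promoters rest on 17 and 2 promoters. The median GC content of the window was 68.8% in higher, 61.6% in lower and 65.2% in tested promoters. These are descriptions of letters in a window, searched on both strands, and no test was made.

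Some ligand, carrier and inhibitor genes of the pathway rose. Of 9 ligands and latent TGF-β binding proteins tested, 4 rose and 1 fell. LTBP4, a latent TGF-β binding protein that holds the ligand in the matrix, went from 47.3 and 46.4 TPM to 131 and 175 TPM (log2 fold change 1.67, SE 0.18, adjusted p = 0.00157). LTBP2, LTBP3 and the ligand gene TGFB1 also rose, TGFB1 from 184 and 129 TPM to 300 and 326 TPM. INHBB, the beta B subunit of activins and inhibins, fell from 40.6 and 9.90 TPM to 15.7 and 3.10 TPM, with ratios of −1.32 and −1.41. Of 11 receptors and co-receptors, the type I receptor TGFBR1 rose (6.62 and 8.96 TPM to 24.5 and 18.6 TPM) and the type II receptor TGFBR2 fell (35.4 and 35.7 TPM to 22.7 and 13.5 TPM). By limma 0 of 5 receptor-activated and common Smads passed, and 1 had an unadjusted p under 0.05, SMAD2, whose TPM was 11.3 and 9.30 without and 4.65 and 4.07 with TGF-β. Of 17 feedback inhibitors 7 rose and 0 fell. PMEPA1, which sequesters receptor-activated Smads, went from 149 and 113 TPM to 435 and 401 TPM (log2 fold change 1.68, SE 0.16, adjusted p = 0.000832). SMAD7, the inhibitory Smad, went from 15.4 and 15.3 TPM to 36.5 and 30.7 TPM (log2 fold change 1.08, SE 0.18, adjusted p = 0.0104). NOG, DACT1, LDLRAD4, SMURF2 and FSTL3 were the other inhibitors that rose. Of these genes LTBP4 and PMEPA1 kept their calls without any 1 library. Without treated replicate 1, the inhibitors counted 1 and the ligands 1, and the highest adjusted p over the libraries left out was 0.0892 for SMAD7, 0.12 for INHBB, 0.161 for TGFB1, 0.11 for TGFBR1 and 0.264 for TGFBR2.

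Among TGF-β and Smad3 targets 42 were tested, of which 34 rose and 0 fell (the background share is 3.49%), and all 42 were higher in both replicates. The list had a median log2 fold change of 1.46, against −0.10 for all genes tested, and of 1.44 and 1.63 in replicates 1 and 2. It was written with earlier results of these data known. Besides ANGPTL4, COL1A1 and IL11, it included PDGFB, a platelet-derived growth factor chain (4.70 and 4.57 TPM to 39.7 and 41.7 TPM), and MMP2, gelatinase A (5.90 and 4.73 TPM to 40.4 and 41.2 TPM). In both of these genes the replicates of each condition lay within about 2 TPM of each other. JUNB, an AP-1 subunit, went from 80.8 and 33.8 TPM to 404 and 467 TPM, and CTGF, a matricellular protein, from 8.52 and 12.8 TPM to 62.3 and 57.5 TPM. TGFBI, a matrix protein named for its induction by TGF-β, was the most abundant, at 573 and 526 TPM without and 2795 and 2186 TPM with the ligand. The 8 members that did not pass had log2 fold changes of 0.17 to 0.83. With the GC trend removed 37 rose and 0 fell, without the block 27 and 0, and without treated replicate 2 the count was 21.

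Part of each list of matrix genes rose. Of 16 fibrillar and network collagens 7 rose and 0 fell. COL4A1, a basement membrane collagen, went from 37.1 and 35.5 TPM to 169 and 166 TPM (log2 fold change 2.18, SE 0.16, adjusted p = 0.000283), and COL5A1, which regulates collagen fibril diameter, from 54.7 and 44.3 TPM to 261 and 262 TPM. Both replicates gave nearly the same treated level for these chains. COL4A2, COL7A1, COL27A1 and COL5A2 were the others. Of 15 collagen-modifying enzymes 2 rose, P4HA3, a prolyl hydroxylase subunit, and BMP1, the procollagen C-proteinase, and the list's median was 0.19. Of 25 matrix glycoproteins and proteoglycans 6 rose and 0 fell, among them TGFBI and THBS1, the adhesive glycoprotein thrombospondin 1. Of 28 matrix proteases and their inhibitors 11 rose and 0 fell. TIMP3, an inhibitor of metalloproteinases, was at 0.189 and 0.225 TPM untreated and 12 and 4.82 TPM after TGF-β. MMP10, stromelysin 2, was listed at 0 in both untreated libraries, against 3.69 and 15.4 TPM after treatment. MMP1, MMP2, MMP9, ADAM19, ADAMTS15, PLAT, PLAUR and TIMP2 of that list also rose. The glycoproteins counted 2 and the proteases 7 without treated replicate 1, and MMP10 did not pass without untreated or treated replicate 2 (highest adjusted p = 0.106). P4HA3 and BMP1 did not pass without treated replicate 1 and treated replicate 2, respectively (0.0503 and 0.0701).

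Some genes for adhesion to matrix and for contractile actin rose. Of 12 integrin subunits 4 rose and 0 fell. ITGA5, which pairs with ITGB1 to bind fibronectin, went from 23.9 and 34.5 TPM to 87.7 and 124 TPM (log2 fold change 1.83, SE 0.17, adjusted p = 0.000827), and ITGB3, ITGA11 and ITGA2 were the others. Of 33 focal adhesion and stress fibre genes 13 rose and 0 fell, with a median log2 fold change of 0.52 and medians of 0.57 and 0.53 in replicates 1 and 2. PDLIM7, a scaffold on actin filaments, went from 115 and 121 TPM to 382 and 461 TPM. ZYX, zyxin of focal adhesions, went from 293 and 315 TPM to 639 and 1129 TPM, and TAGLN, the actin-binding SM22, from 34.3 and 22.8 TPM to 77.8 and 99.2 TPM. CNN1, calponin, was listed at 0 in both untreated libraries, against 3.06 and 1.74 TPM after TGF-β. PXN, ACTN1, RHOB, CNN2, MYH9, TPM1, FLNA, LMCD1 and NEDD9 were the other members that rose. The stress fibre count rested on single libraries: it was 1 without treated replicate 2 and 7 without untreated replicate 2, and 3 without the block. The highest adjusted p without 1 library was 0.0533 for ZYX, 0.0759 for TAGLN and 0.106 for CNN1. Of the integrins, 1 passed without treated replicate 1.

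Of 33 genes of lamellipodia and Rac effectors 2 rose and 0 fell, LIMK1, a kinase that inactivates cofilin, and FSCN1, the actin bundler fascin. LIMK1 went from 47.2 and 45.6 TPM to 79.8 and 96.5 TPM and FSCN1 from 249 and 154 TPM to 364 and 442 TPM. The list's median ratio was 0.22 in replicate 1 and −0.18 in replicate 2. Without treated replicate 1, none of these genes passed, and with the GC trend removed 4 were higher and 1 was lower. Of 24 exchange factors for Rac, which load it with GTP, DOCK4 and VAV2 rose and ECT2 fell. VAV2 went from 37.0 and 40.7 TPM to 87.0 and 70.5 TPM, and ECT2, which also drives cytokinesis, from 28.3 and 37.1 TPM to 19.2 and 12.6 TPM. Without treated replicate 1 neither DOCK4 nor VAV2 passed (adjusted p = 0.155 and 0.112), and ECT2 did not pass without 7 of the 8 libraries (highest adjusted p = 0.31).

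The ARHGAP genes, whose proteins speed GTP hydrolysis by small G proteins such as Rac, were the class that the study followed. By limma 0 of 23 tested members passed in Smad3(RA/KP) cells, and 4 had an unadjusted p under 0.05. With the GC trend removed 1 was higher and 0 lower. Over all 13141 genes tested 3.49% were higher and 1.50% lower, and 1282 and 1593 had an unadjusted p under 0.05. At such shares few of 23 members would pass, so the count of 0 does not set the class apart. The 2 with the smallest p were ARHGAP31, at 1.78 and 2.70 TPM untreated and 4.88 and 6.31 TPM after TGF-β (log2 fold change 1.03, SE 0.26, adjusted p = 0.0565), and ARHGAP18, at 12.8 and 12.4 TPM without and 7.09 and 5.26 TPM with it (adjusted p = 0.0818). ARHGAP27 was at 17.7 and 18.8 TPM untreated and 13.6 and 17.7 TPM after TGF-β, with ratios of −0.35 and −0.09. Its treated value in replicate 2 equalled an untreated value at this rounding. ARHGAP22 was at 1.05 and 2.48 TPM untreated and 1.72 and 3.20 TPM after TGF-β, and its groups overlapped. ARHGAP24 was at 1.15 and 0.944 TPM without and 0.812 and 0.618 TPM with it, and was not tested because its mean lay below 1 TPM. Without untreated replicate 1 some ARHGAP genes passed, and the counts over all genes tested rose in that setting as well.

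Transcription factors of EMT rose in part, and epithelial markers mostly did not pass. Of 19 EMT transcription factors 5 rose and 0 fell. SNAI1, Snail, went from 5.96 and 3.39 TPM to 24.9 and 44.5 TPM (log2 fold change 2.63, SE 0.31, adjusted p = 0.00235). SNAI2, Slug, went from 0.823 and 1.59 TPM to 3.44 and 5.90 TPM, and HMGA2, an architectural chromatin protein, from 10.8 and 37.2 TPM to 37.0 and 71.0 TPM. The HMGA2 groups overlapped, since replicate 2 was higher in both conditions, with ratios of 1.69 and 0.91. ETS2 and SOX4 were the other factors that rose. Of 11 mesenchymal markers 3 rose, MMP2, ITGA5 and VIM, the intermediate filament vimentin, which went from 1163 and 1803 TPM to 2562 and 3379 TPM. Of 28 epithelial markers 2 rose, CLDN4 and the junction protein JUP, and 0 fell. CDH1, E-cadherin, was at 7.48 and 6.84 TPM untreated and 5.69 and 1.59 TPM after TGF-β, ratios of −0.34 and −1.60, and did not pass (log2 fold change −0.97, SE 0.34, adjusted p = 0.148). Its 2 replicates differed more than 3-fold in the treated libraries. Of 15 epithelial transcription and splicing factors 2 rose, among them the nuclear receptor HNF4A, and EHF, ELF3 and KLF5 fell, with a median of −0.44. EHF, an epithelial Ets factor, went from 3.85 and 2.18 TPM to 0.509 and 0 TPM. SNAI1 and CLDN4 kept their calls in all alternatives, while the EMT factors counted 1 and the epithelial markers 1 without treated replicate 1. The highest adjusted p without 1 library was 0.146 for SNAI2, 0.0896 for HMGA2, 0.0892 for VIM, 0.142 for JUP, 0.0525 for HNF4A, 0.139 for EHF and 0.276 for KLF5.

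Growth factor genes moved in both directions. Of 11 EGF receptor ligands and receptors 1 rose and 4 fell. HBEGF, heparin-binding EGF, went from 2.75 and 7.01 TPM to 11.7 and 27.8 TPM, with ratios of 1.76 and 1.85. Against it, AREG, BTC, EREG and the receptor inhibitor ERRFI1 fell, EREG from 15.1 and 41.2 TPM to 6.44 and 6.68 TPM and ERRFI1 from 38.5 and 35.5 TPM to 16.6 and 11.6 TPM. BTC, betacellulin, was at 4.02 and 5.80 TPM untreated and 0 and 0.727 TPM after TGF-β, and did not pass with the GC trend removed (adjusted p = 0.0585). Of 27 other growth factor genes 9 rose and 2 fell. VEGFA, an angiogenic factor, went from 26.2 and 26.3 TPM to 78.2 and 107 TPM. GDF15, a stress-induced member of the TGF-β superfamily, fell from 161 and 94.1 TPM to 25.4 and 38.2 TPM, ratios of −2.62 and −1.28. Without 1 library, AREG alone of the 4 that fell in the EGF group passed when untreated replicate 2 was left out, and GDF15 did not pass without treated replicate 1 (adjusted p = 0.0525). HBEGF did not pass without treated replicate 2 (0.0682), and without that library 4 of the other growth factors rose.

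Some immediate early and cytokine genes rose, and ERK feedback genes mostly did not pass. Of 16 AP-1 and immediate early genes 6 rose and 0 fell. JUN went from 60.1 and 80.5 TPM to 185 and 237 TPM (log2 fold change 1.58, SE 0.18, adjusted p = 0.00183), and MAFK, IER3, MAFF and IER2 rose beside JUNB. IER3, an early response gene of stress and survival, went from 156 and 137 TPM to 365 and 389 TPM. Of 16 ERK feedback genes DUSP7, a phosphatase of ERK, was the only one to pass, where 3.49% of all genes tested were higher. Of 11 BMP targets 3 rose, BMP6, MSX2 and ID3, and BMP4 fell. Of 14 cytokines and chemokines IL11, IL6 and IL32 rose and CXCL5 fell, IL6 from 2.46 and 14.4 TPM to 15.3 and 41.4 TPM and CXCL5, a neutrophil chemokine, from 107 and 92.8 TPM to 30.2 and 45.1 TPM. The untreated libraries differed almost 6-fold for IL6, whose ratios were 2.24 and 1.46. By limma 0 of 12 acute phase, fibrinogen and complement genes passed and 4 had an unadjusted p under 0.05, TFPI being nearest (adjusted p = 0.0503). Of the BMP targets none of the 3 rises passed without treated wild-type replicate 1, and DUSP7, IL6 and CXCL5 did not pass without treated replicate 1 (highest adjusted p over single libraries 0.0983, 0.065 and 0.0934).

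Cell cycle lists had medians below 0, as did all genes tested (−0.10), and few of their members passed. The median of the cell cycle brakes, −0.14, was close to that of all genes. GADD45B, a stress sensor that restrains the cell cycle, went from 17.2 and 27.0 TPM to 98.4 and 128 TPM (log2 fold change 2.32, SE 0.16, adjusted p = 0.000227). CDKN1A, the inhibitor p21, went from 112 and 85.9 TPM to 233 and 225 TPM, and TOB1, an antiproliferative gene, fell from 52.1 and 50.0 TPM to 21.4 and 19.3 TPM. These were 3 of 14 cell cycle brakes tested. By limma 0 of 36 S phase genes passed, although 12 had an unadjusted p under 0.05. Of all 13141 genes tested 1593 were lower and 1282 higher at that unadjusted p. The median ratio of the S phase genes was −0.09 in replicate 1 and −0.76 in replicate 2, against 0.04 and −0.23 for all genes. With the GC trend removed the S phase genes had −0.16 and −0.42. Of 32 G2 and mitosis genes CDC25B, a phosphatase that activates CDK1, fell from 336 and 232 TPM to 151 and 126 TPM, and AURKA, Aurora kinase A, from 111 and 92.5 TPM to 70.6 and 48.3 TPM. The medians of this list were −0.19 and −0.92, and with the GC trend removed 0 were higher and 5 lower. The counts of the S phase list and of the G2 and mitosis list rose without untreated replicate 1. The count of lower genes over all genes tested rose in that setting as well. CDC25B, AURKA and TOB1 did not pass without treated replicate 1, and CDKN1A did not without treated replicate 2 (highest adjusted p over single libraries 0.0782, 0.208, 0.104 and 0.0546).

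Among detoxifying genes, falls outnumbered rises. Of 34 NRF2 targets and xenobiotic enzymes 1 rose and 7 fell. HMOX1, heme oxygenase 1, rose from 127 and 128 TPM to 335 and 438 TPM (log2 fold change 1.58, SE 0.16, adjusted p = 0.000933). ABCC2, an efflux transporter of conjugates, fell from 124 and 135 TPM to 60.7 and 36.7 TPM, and NR0B1, an orphan nuclear receptor, from 47.7 and 42.6 TPM to 17.7 and 17.8 TPM. AKR1C3, an aldo-keto reductase with near-identical paralogs, fell from 1918 and 1493 TPM to 1241 and 690 TPM, the largest fall in TPM among the members named here. Together 29 of the 34 were lower in both replicates, with a median of −0.49, against −0.10 for all genes tested. The list's medians were −0.38 and −0.67 in replicates 1 and 2, against 0.04 and −0.23 for all genes. How many of all genes were lower in both replicates was not counted. The count of 7 dropped without treated replicate 2 and rose without untreated replicate 1, as the count of lower genes did over all genes tested. CYP1B1, a cytochrome P450 driven by the aryl hydrocarbon receptor, fell from 37.3 and 44.1 TPM to 21.5 and 14.9 TPM and was 1 of 7 genes of that pathway. It did not pass without 4 of the 8 libraries (highest adjusted p = 0.219).

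Of 28 genes of cholesterol and fatty acid synthesis, ACLY, which makes cytosolic acetyl-CoA, rose from 265 and 314 TPM to 511 and 462 TPM, and 4 fell, ELOVL6, MSMO1 and FDFT1 among them. None of the 5 that passed kept its call without each library in turn, and the 4 falls counted 0 without untreated wild-type replicate 1. Of 26 genes of glycolysis and hypoxia VEGFA, PFKFB4 and NDRG1 rose. PFKFB4, a regulator of glycolytic flux, went from 10.0 and 9.42 TPM to 28.9 and 24.1 TPM, and NDRG1, a hypoxia-induced gene, from 45.4 and 44.9 TPM to 77.9 and 88.0 TPM. ANGPTL4 is also a target of PPAR-delta. Of the 11 genes of that list it was the only one that rose, whereas PDK4, a brake on glucose oxidation, fell from 3.49 and 3.12 TPM to 0.377 and 0 TPM and PLIN2, a lipid droplet coat protein, from 32.0 and 66.5 TPM to 15.7 and 17.8 TPM. Neither PDK4 nor PLIN2 passed without treated replicate 2, and the highest adjusted p without 1 library was 0.113 for PDK4, 0.11 for PLIN2, 0.0601 for PFKFB4 and 0.151 for NDRG1. Of 28 amino acid stress and unfolded protein response genes only SESN2, sestrin 2, rose and only GDF15 fell. Over all genes tested 3.49% were higher and 1.50% lower. SESN2 did not pass without 7 of the 8 libraries.

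Signalling genes outside the TGF-β pathway also responded. Of 30 NOTCH and WNT genes 4 rose and 2 fell. WNT7A was listed at 0 without TGF-β and at 2.40 and 3.68 TPM with it. TCF7, a transcription factor of the Wnt pathway, went from 10.6 and 7.97 TPM to 30.1 and 28.0 TPM, and JAG1, a Notch ligand, from 29.2 and 33.4 TPM to 73.9 and 60.9 TPM. LGR4, a receptor for R-spondins, and DKK1, a secreted Wnt inhibitor, fell. LGR4 was at 18 and 19.6 TPM untreated and 10.2 and 2.85 TPM after TGF-β, so that its fall was mostly in replicate 2. Of 26 guidance receptors and ligands 5 rose, SEMA7A, EFNA1, EPHB2, PLXNA3 and NRP2, and NRP1 fell. EFNA1, ephrin A1, went from 25.9 and 22.1 TPM to 95.6 and 76.7 TPM. The neuropilins moved in opposite directions, NRP2 from 38.8 and 26.6 TPM to 76.3 and 51.5 TPM and NRP1 from 59.8 and 59.2 TPM to 35.2 and 17.7 TPM. Of 26 interferon and antigen presentation genes OAS1, an antiviral enzyme, fell from 66.1 and 43.3 TPM to 30.9 and 18.9 TPM. It was the only member to pass, where 1.50% of all genes tested were lower. Of 14 microRNA host genes and long noncoding RNAs MEG3 and MIR22HG rose, MEG3 from 72.0 and 82.4 TPM to 220 and 277 TPM (log2 fold change 1.67, SE 0.16, adjusted p = 0.000844). TCF7, EFNA1 and MEG3 kept their calls in all alternatives. The highest adjusted p without 1 library was 0.0739 for WNT7A, 0.0961 for JAG1, 0.237 for LGR4, 0.245 for DKK1, 0.0654 for EPHB2, 0.125 for NRP2, 0.156 for NRP1, 0.0783 for OAS1 and 0.191 for MIR22HG.

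Each list's ratio was then read by replicate, since untreated replicate 2 enters replicate 2 alone. For the TGF-β and Smad3 targets, collagens and stress fibre genes the median was above 0.5 in each replicate, with and without removal of the GC trend, apart from 0.48 for collagens in replicate 2 and 0.47 for stress fibre genes in replicate 1, both with the trend removed. For receptors, lamellipodium genes, ARHGAP genes and Rac exchange factors the medians of the replicates had opposite signs, positive in replicate 1 and negative in replicate 2. All genes tested had the same signs, with medians of 0.04 and −0.23. So did the epithelial markers, cell cycle brakes, amino acid stress genes, NOTCH and WNT genes and microRNA host genes. With the GC trend removed the lamellipodium genes had 0.15 and 0.23, while the signs stayed opposite for receptors (0.14 and −0.18), ARHGAP genes (0.03 and −0.23) and Rac exchange factors (0.31 and −0.01). The mesenchymal markers went from 0.78 and 0.23 to 0.76 and 0.73. The BMP targets kept a wide gap, with 0.20 and 1.01 before and 0.12 and 0.95 after removal. Some single genes passed as deposited and not with the GC trend removed. Among those with the widest gap between replicates, the rises were ID3, an inhibitor of DNA binding that Smads induce, at 0.50 and 1.58, PRSS3, mesotrypsin, at 0.52 and 1.51, and DHRS2, a reductase, at 1.06 and 2.71. The falls were CXCL5 at −1.78 and −1.02, SNAP25, a vesicle fusion protein, at −0.79 and −1.57, and FANCL, a ubiquitin ligase of DNA repair, at −0.63 and −1.33. Their adjusted p with the trend removed ranged from 0.0507 for FANCL to 0.115 for CXCL5. All 6 also lost their calls without some library, the highest adjusted p running from 0.0934 for CXCL5 (without treated replicate 1) to 0.338 for DHRS2 (without treated replicate 2).

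**Figure D3:**
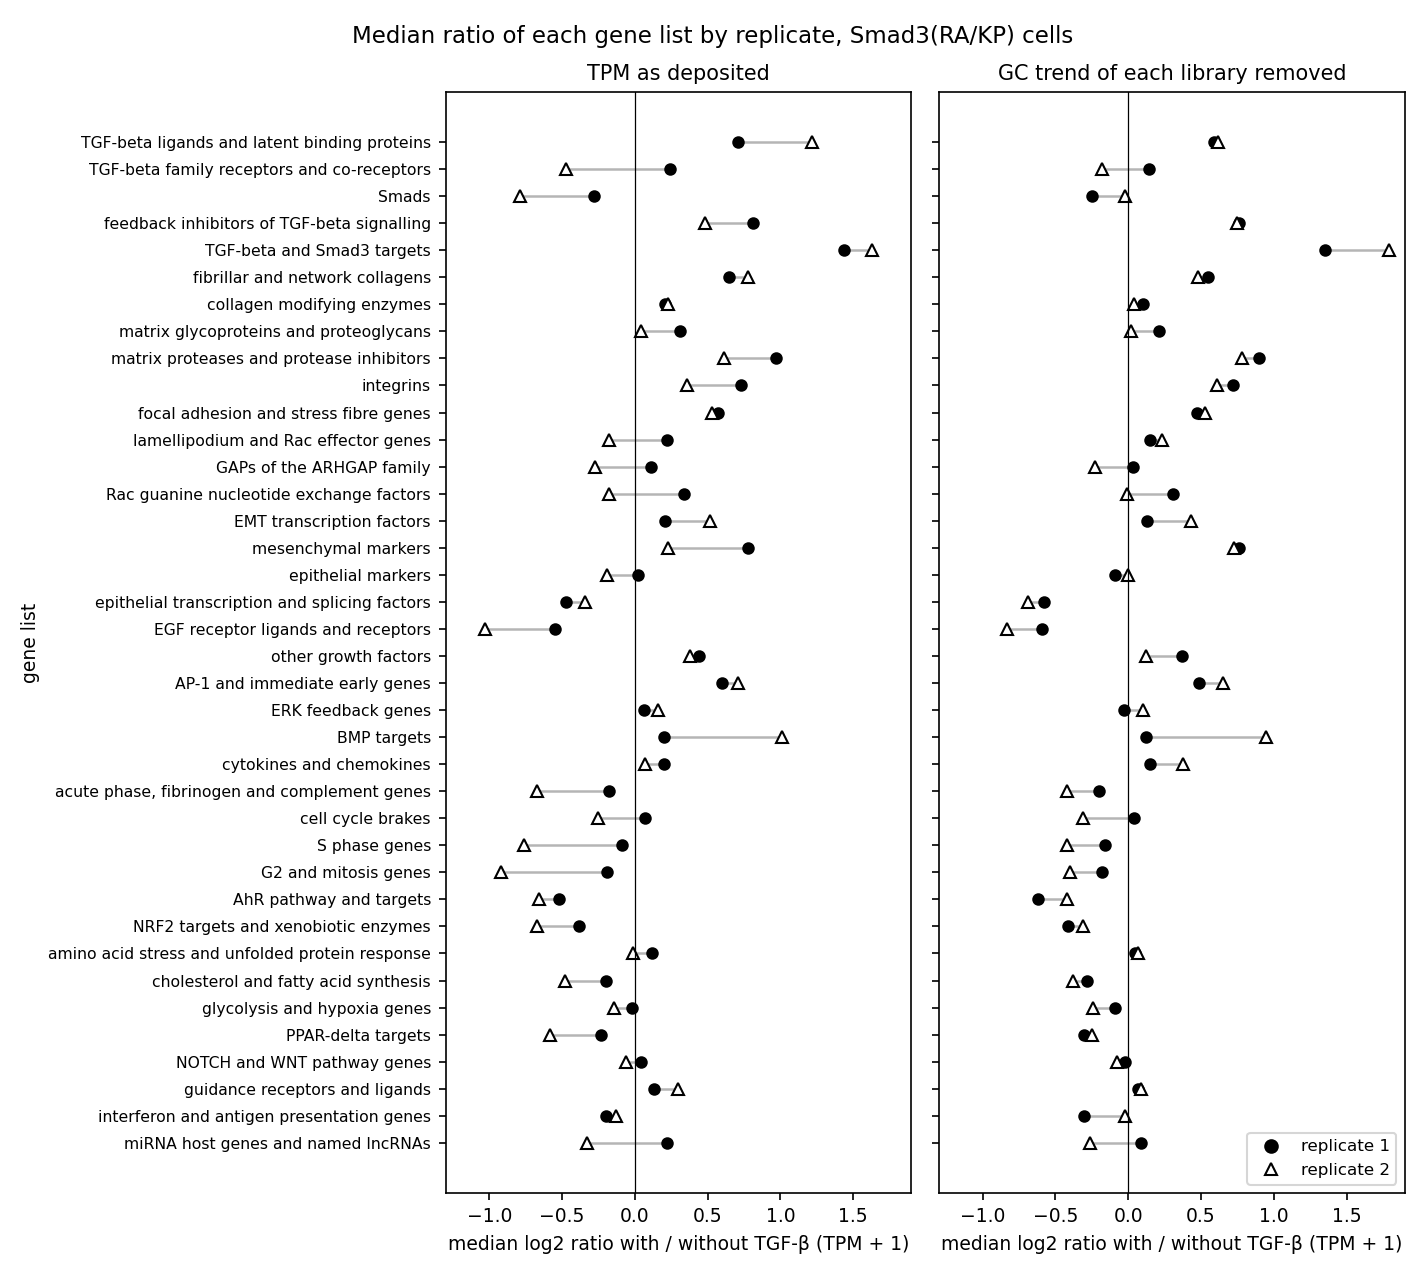
Median log2 ratio with to without TGF-β on TPM + 1 (horizontal axis) of each gene list (vertical axis) in replicate 1 (filled circles) and replicate 2 (open triangles) of Smad3(RA/KP) cells, from TPM as deposited (left) and with the GC trend of each library removed (right). The gap between replicates of the G2 and mitosis list goes from −0.19 and −0.92 on the left to −0.18 and −0.40 on the right.

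To ask where the response of Smad3(RA/KP) cells differs from that of wild-type Smad3 cells, the responses were subtracted in the same fit. In wild-type Smad3 cells 2.94% of genes were higher and 1.74% lower. The difference passed for SEPT5, CTB-178M22.2 and LOC102724049, 3 genes or 0.0228% of those tested, and 564 had an unadjusted p under 0.05. The 3 calls were lost when any 1 of the 4 treated libraries was left out, and also without untreated wild-type replicate 1. More genes passed for the difference without untreated wild-type replicate 2 or without untreated Smad3(RA/KP) replicate 1. For the genes that responded in Smad3(RA/KP) cells, both wild-type ratios had the same direction in 449 of 458 higher and 184 of 197 lower genes. Of these higher and lower genes 308 and 94 passed in wild-type cells as well. How many of all genes tested shared a direction between the lines was not counted. Of the TGF-β and Smad3 targets 0 passed for this difference by limma, 2 had an unadjusted p under 0.05, and 35 of 42 were higher in wild-type cells. The counts in wild-type cells were also close for collagens (7 higher), focal adhesion and stress fibre genes (13 higher) and integrins (5 higher). INHBB had the smallest unadjusted p for the difference among named genes that both lines changed in 1 direction. Its log2 fold change was −1.36 in Smad3(RA/KP) cells and −2.86 in wild-type cells, a difference of 1.50 (SE 0.33, limma adjusted p = 0.881). CYP1B1 had −1.13 and −2.15 (difference 1.01, SE 0.34), FA2H −1.60 and −2.30 (0.71, SE 0.25) and MEG3 1.67 and 1.05 (0.62, SE 0.23). PFKFB4 had 1.35 in Smad3(RA/KP) cells and 0.50 in wild-type cells, where it did not pass (difference 0.85, SE 0.28). ARHGAP27 had −0.22 and −1.24, a difference of 1.02 (SE 0.32), and ARHGAP22 0.34 and −0.59, a difference of 0.93 (SE 0.39). None of these differences passed after adjustment, with an adjusted p = 0.881 for each.

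**Figure D4:**
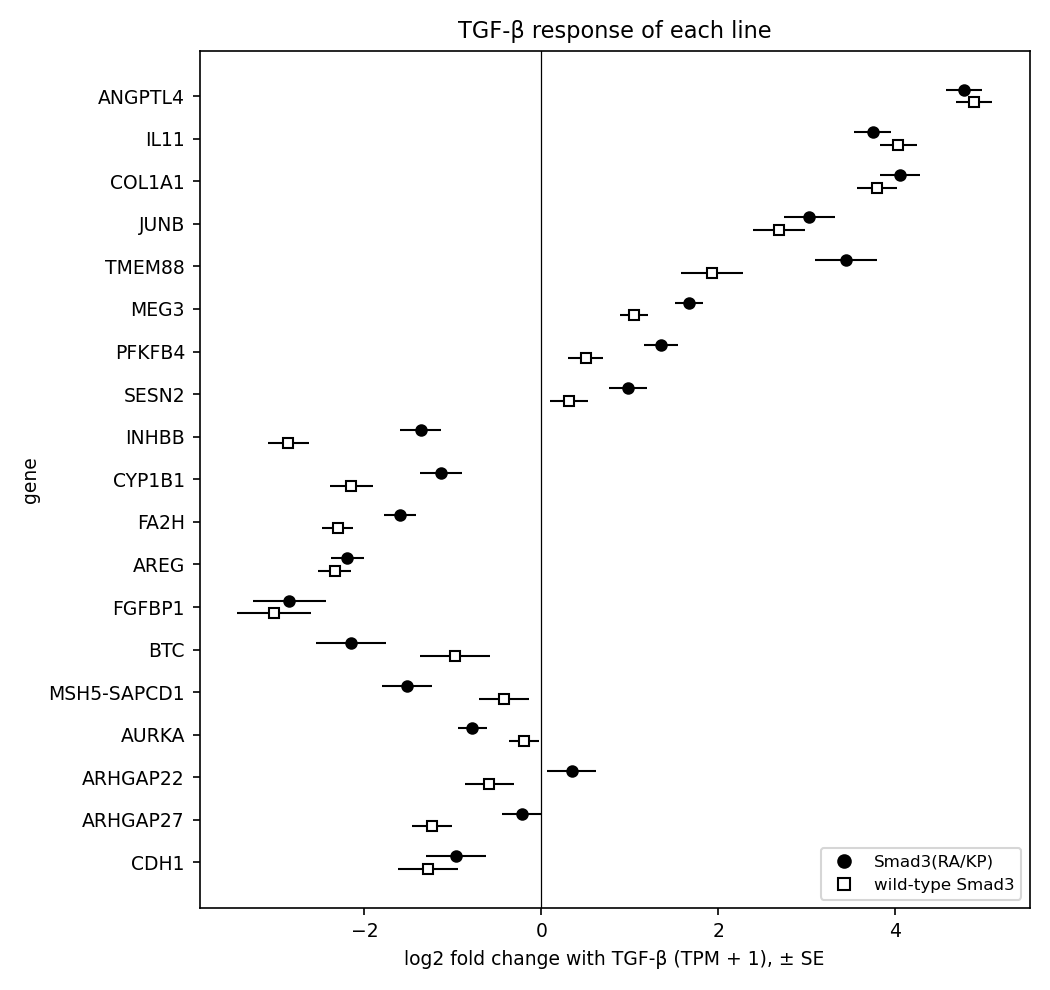
Log2 fold change with TGF-β on TPM + 1 (horizontal axis) with its SE in Smad3(RA/KP) cells (filled circles) and wild-type Smad3 cells (open squares) for 19 genes (vertical axis), n = 2 libraries per group. The symbols of ANGPTL4, AREG and FGFBP1 lie within an SE or so of each other, those of INHBB stand at −1.36 and −2.86, and those of ARHGAP27 at −0.22 and −1.24.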

How the data were processed

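Tables of 8 libraries were used, 2 in each of 4 groups, grouped by their titles. Reads had been mapped by the authors to GRCh38 (HISAT2), and genes were quantified with StringTie without de novo transcript assembly (versions 2.1.0 and 2.0.4 in the submitters' processing notes). The gene annotation and the use of strand in counting are not given in the sources used here. TPM deposited by the authors, scaled to 1000000 per library, was the main value. FPKM, per length and mapped fragments, deposited by the authors, served as an alternative. Coverage (a signal, mean reads per base), deposited by the authors, was divided by FPKM to recover mapped bases, 1.15 to 1.81 Gb per library. Read counts are not given, so no counting interval is given.

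Records of 1 gene name were summed (30017 symbols). Genes whose mean over 8 libraries reached 1 TPM entered limma 3.58.1 (R 4.3.3), fitted to log2(TPM + 1), which understates changes of weakly expressed genes. The model held the 4 groups and the replicate number as a block, with empirical Bayes moderation and a mean-variance trend (3 residual and 5.90 prior degrees of freedom), and Benjamini-Hochberg adjustment at 0.05 over all genes tested. The study describes 2 independent experiments, but no source used here states that same-numbered libraries share one, so p-values measure only the spread between these libraries. GC content is that of each symbol's longest GENCODE transcript (94.3% of genes tested), and its trend was removed with a loess fit (span 0.3) for each library against the mean of all 8.

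The members and the 42 gene lists were chosen with earlier results of these data known. Lists are described by counts and medians, with no set test. Of the lists, 41 had a tested member; mitochondrially encoded genes had none in the tables. Named genes are: past the threshold, at a mean of at least 5 TPM in Smad3(RA/KP) libraries, the 15 per direction with the largest smaller ratio of the 2 replicates; per list up to 4 per direction by the same order, or 2 with the smallest p where none passed; the genes the study names; the 3 per direction with the widest gap between replicates among those that passed only without removal of the GC trend; and up to 5 that passed for the difference. Other list members are named without values. Some genes that the rule names are not reported here. Promoters are from RefSeq. Alternatives were pseudocounts of 0.5 and 5 TPM, no filter or a mean of at least 5 TPM, FPKM, median-ratio scaling, quantile normalization, other blocks, no trend, GC removal and leaving out each library. Plots used Python 3.11.15 and matplotlib 3.10.9.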

Additional observations from a re-analysis of the deposited data

Results flagged for a closer look

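The responses of the lines differed past the threshold for SEPT5, CTB-178M22.2 and LOC102724049 (limma adjusted p = 0.0257 for each). Each rests on libraries where a record was listed at 0. CTB-178M22.2 was at 3.55 and 6.14 TPM in untreated Smad3(RA/KP) cells and at 0 after treatment. In wild-type Smad3 cells it was at 0 untreated and 3.01 and 2.17 TPM treated. LOC102724049 had the same arrangement, with 2.61 and 2.90 TPM untreated in Smad3(RA/KP) cells and 2.67 and 3.22 TPM treated in wild-type cells. SEPT5 was at 12.1 and 14.6 TPM in untreated and 8.00 and 18.8 TPM in treated wild-type cells. Summed with the overlapping SEPT5-GP1BB record its wild-type ratios were −0.16 and 0.29, against 0.91 and 1.51 in Smad3(RA/KP) cells. How records that share exons were resolved was not tested.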

How the results depend on the processing

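Of 136 named genes that passed, 44 kept the call in every alternative fitted, and none changed direction. TWIST2, which did not pass (log2 fold change 0.05), had −0.12 with the GC trend removed and −0.24 (without untreated Smad3(RA/KP) replicate 2) to 0.34 (without untreated replicate 1) when 1 library was left out. The numbers of higher and lower genes, 458 and 197, were 202 and 40 with no filter on low values, 296 and 80 with a replicate block within each line, and 214 and 55 with no replicate block; 309 were lower on FPKM and 349 with the GC trend removed. Deviations of same-numbered libraries from the group means correlated at 0.048 between the 2 groups of Smad3(RA/KP) libraries. The other pairs of groups had 0.221 to 0.332. These values do not settle whether same-numbered libraries share an experiment. Leaving out 1 library gave 147 to 993 higher and 16 to 1629 lower genes, lowest without treated replicate 2 and highest without untreated replicate 1 of Smad3(RA/KP) cells. The difference of the responses passed for 3 genes, for 1 at a mean of at least 5 TPM, and in limma for 0 with a pseudocount of 5 TPM (569 at an unadjusted p under 0.05), no filter (861), FPKM (588), a block within each line (488) or the GC trend removed (591). It passed for 2 with no replicate block and 0 to 8 without 1 library (231 to 3154 unadjusted). Left-out libraries aside, the counts stayed within 1.5 times in the other alternatives. The causes were not tested. With 4 libraries of 1 line alone the difference could not be fitted.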
